A study of Mus musculus with 8 samples.

Results

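Spleen was compared with lymph node among Aire-knockout samples, on the 2 arrays titled spleen knockout (A and B) and the 2 titled lymph node knockout (A and B), out of 8 arrays in the series. The arrays were chosen by title alone, and all 45037 probe sets that are not control probe sets were considered, of which 23663 had enough signal to be tested. The other 4 arrays, of wild-type spleen and lymph node, were used only to see whether a tissue difference was also present there. Both groups shared the Aire knockout. Their labels give tissue, genotype and a letter, and no strain, allele, age, sex, cell type, sorting step or treatment. The study concerned cells outside the thymus that express Aire, so spleen and lymph node here mean RNA samples from those organs that need not be whole tissue. The labels do not say whether the A and B arrays of a group came from separate animals. A p-value here therefore rests on the spread of 2 arrays a group, some of which may be technical.

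Spleen and lymph node are both sites where dendritic cells, T cells and B cells meet, but they filter different fluids. The spleen filters blood: its red pulp holds macrophages that break down old red cells and recycle their iron, it has open sinuses and a marginal zone of B cells, and in mice it also makes red cells. Lymph nodes filter lymph, which brings in migrating dendritic cells and fluid from tissues, and they recruit lymphocytes through high endothelial venules. Aire is a regulator of transcription that, in the thymus, drives display of tissue antigens to developing T cells.

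The targeted gene had signals of 1043 and 2457 on the spleen knockout arrays and 818 and 1176 on the lymph node knockout arrays, A first. On the wild-type arrays it had 4922 and 5085 in spleen and 2982 and 3454 in lymph node, so each knockout array lay below each wild-type array. Spleen exceeded lymph node in knockout by 0.71 ± 0.55 on the log2 scale (limma adjusted p = 0.9999), and the 2 tissues overlapped. Here and below, signals are scaled to a common array median, differences are of mean log2 signal, spleen minus lymph node, and ± is the standard error of the fit (n = 2 arrays a group). The position of this probe set with respect to the deletion is not stated in the labels.

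Some arrays stood apart from the others. Median signals ran from 56.0 to 64.4 as deposited, the 3' to 5' ratio of the Actb controls from 1.01 to 1.13 and that of the Gapdh controls from 3.12 to 3.75. Over the tested probe sets spleen A correlated at 0.912 with lymph node A and at 0.830 with spleen B, so the letters divided the arrays as strongly as the tissues did. Xist, made from the inactive X chromosome, had 5716 in spleen and 6573 in lymph node on the A arrays, where the Y-linked Eif2s3y had 1154 and 539. On the B arrays Xist had 15.1 and 23.9 and Eif2s3y 2036 and 2056. The A arrays therefore carried both female and male transcript and the B arrays only the male one, in both tissues alike. By these signals the A and B arrays of a tissue were not repeats of the same RNA. The spread within a group, on which each p-value rests, includes this difference between the letters. Among the 4, spleen A alone carried neutrophil granule transcripts: S100a9 and S100a8 had 4999 and 3055 there and no more than 111 on any other knockout array. Lymph node B alone carried salivary gland transcripts at high signals, with Amy1 at 2758, Smr3a at 2749.8 and Bpifa2 at 4650, against no more than 43.9 on the other 3. None of the 8 salivary list genes with a probe set had enough signal on 2 arrays to be tested. Without lymph node B, 5 of the 8 still had the higher mean in lymph node and 0 in spleen, with a median of -0.33. The part of the neutrophil and salivary transcripts in the other results was not tested. In bulk samples like these, fewer cells of a type and less RNA per cell cannot be told apart.

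No probe set passed correction. Of the 23663 tested, 0 (0%) were called at a limma adjusted p under 0.05, the lowest being 0.113 for Slc4a1. At an unadjusted p under 0.05 there were 914 probe sets, 492 higher in spleen and 422 higher in lymph node. Without the shift to a common median the split turned to 413 and 588, and the median difference went from 0.02 to -0.05. Counted once per gene, 223 of 10606 genes (2.1%) were higher in spleen at that unadjusted threshold and 156 (1.47%) were higher in lymph node. In 1899 genes (17.9%) both spleen arrays lay above both lymph node arrays, and in 1325 (12.5%) the reverse held. Over all 18193 genes with a probe set, low ones included, these shares were 15.7% and 11.7%. With 2 arrays against 2, the smallest p an exact two-sided permutation test can give is 0.333. Over 2-fold, 1083 tested probe sets were higher in spleen and 1305 in lymph node. The far end leaned the other way: 11 tested probe sets exceeded 16-fold in favour of spleen and 1 in favour of lymph node. Those 11 include 2 probe sets of Slc4a1, and also S100a9, in which the tissues overlapped.

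Red cell genes stood at that far end. All but 1 of the 17 matched members of a list of erythroid genes had a higher mean in spleen, the exception being Rhag, below the floor on all 4 arrays. In 11 of the 17 the tissues did not overlap, a share to be read against the 15.7% over all genes. Their median difference was 1.35, against 0.01 over all 18193 genes. A gene present in only 1 tissue passes the filter through that tissue, so the 7 tested members are described, with no count of them taken as support; 5 of the 7 had an unadjusted p under 0.05, with spleen higher.

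4 red cell genes are shown with the 250 bases before their RefSeq start (build GRCm38.p6, 5′ to 3′ on the gene's strand). Red cell genes are known targets of the factor GATA1, and these 4 were high in spleen together. Rhd is not on the erythroid list. Capitals mark the letters GATAA, or TTATC where the match is on the other strand. Klf1 lies at chr8:84901732-84901981 (plus strand), Hemgn at chr4:46404184-46404433 (minus), Rhd at chr4:134864286-134864535 (plus) and Alas2 at chrX:150547167-150547416 (plus).
Klf1: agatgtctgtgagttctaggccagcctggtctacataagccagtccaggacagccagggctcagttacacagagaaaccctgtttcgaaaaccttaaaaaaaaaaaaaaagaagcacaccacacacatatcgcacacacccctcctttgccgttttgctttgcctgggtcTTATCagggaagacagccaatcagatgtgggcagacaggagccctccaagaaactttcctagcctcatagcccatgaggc
Hemgn: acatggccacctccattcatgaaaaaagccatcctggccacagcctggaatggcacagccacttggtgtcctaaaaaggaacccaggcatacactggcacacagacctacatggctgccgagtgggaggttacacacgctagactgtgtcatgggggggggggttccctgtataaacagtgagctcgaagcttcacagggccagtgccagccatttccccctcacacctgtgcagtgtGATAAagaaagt
Rhd: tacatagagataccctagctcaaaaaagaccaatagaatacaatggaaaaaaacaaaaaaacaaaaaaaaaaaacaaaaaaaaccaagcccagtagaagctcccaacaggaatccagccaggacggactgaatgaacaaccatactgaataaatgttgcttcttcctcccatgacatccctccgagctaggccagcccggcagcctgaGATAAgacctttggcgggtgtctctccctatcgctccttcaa
Alas2: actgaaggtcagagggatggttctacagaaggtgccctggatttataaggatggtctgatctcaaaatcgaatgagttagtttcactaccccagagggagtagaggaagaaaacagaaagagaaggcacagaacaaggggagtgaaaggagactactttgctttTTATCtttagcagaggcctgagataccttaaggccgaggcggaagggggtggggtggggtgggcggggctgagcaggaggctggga
Each window held 1 match. Among the erythroid list genes with an entry, 10 of 14 held a match on either strand, as did 7418 of 32851 windows of this length over all genes (22.6%). A list gene was counted if any of its windows matched, while the share over all genes counts each window. The shares are therefore not like for like. A match is a description of these letters and not evidence of binding.

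Slc4a1, the band 3 anion exchanger of the red cell membrane, had signals of 1915 and 1351 in spleen and 9.96 and 10.02 in lymph node. Its difference was 7.33 ± 0.40 (limma adjusted p = 0.113). The lymph node signals lay just above the floor of 9.90, so the size depended on the floor, and it was 5.47 with the floor at the 40th percentile. A second probe set gave 980 and 1141 against 12.6 and 14.2. With a trended and robust prior both probe sets passed, at limma adjusted p = 0.00176 and 0.00289, and they made up 2 of the 3 probe sets called in that way. The other was a probe set without a gene symbol, at 2363 and 1153 in spleen and below the floor in lymph node. On both Slc4a1 probe sets the tissues were far apart, and the arrays within a tissue were close.

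Hemgn, a nuclear protein of blood progenitors and red cell precursors, had 676 and 369 in spleen and 22.7 and 11.6 in lymph node (4.94 ± 0.55, limma adjusted p = 0.834). Klf1, the transcription factor that switches on the adult globin programme, had 129 and 76.8 in spleen and was below the floor of 9.90 on both lymph node arrays. That set it at least 10.05-fold higher in spleen (3.33 ± 0.43, limma adjusted p = 0.834). Rhd, a blood group antigen of the red cell surface, had 87.7 and 72.6 against 11.8 and a value below the floor (2.89 ± 0.38). In all 3 genes both spleen arrays were several-fold above both lymph node arrays.

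Car2, a carbonic anhydrase abundant in red cells and present in other cells too, had 1329 and 1309.6 in spleen and 154 and 253 in lymph node (2.74 ± 0.43). Alas2, the enzyme that starts heme synthesis in red cell precursors, had 262 and 170 in spleen and 7.62 and 61.9 in lymph node (3.09 ± 0.92). Ermap, a membrane protein of red cell precursors, followed with 480 and 68.4 against 57.5 and 21.2 (2.38 ± 1.04), its spleen B array barely above lymph node A. Tfrc, the transferrin receptor of dividing cells, overlapped between tissues at 1222 and 310 against 627 and 338. Over all 17 matched members, low ones included, the median of 1.35 was 1.02 without spleen A, 2.32 without spleen B, 1.20 without lymph node A and 1.51 without lymph node B. Among list members under the filter, Car1 had 221 and 28.1 against 8.61 and 14.2 and Gata1 101 and 7.31 against 18.6 and 22.1. Hbb-b2, a beta globin gene outside the naming rule, was picked after its values were seen. It had 3677 and 1797 in spleen and 82.2 and 270 in lymph node (4.11), and near-identical globin copies may share its probes.

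**Figure D1:**
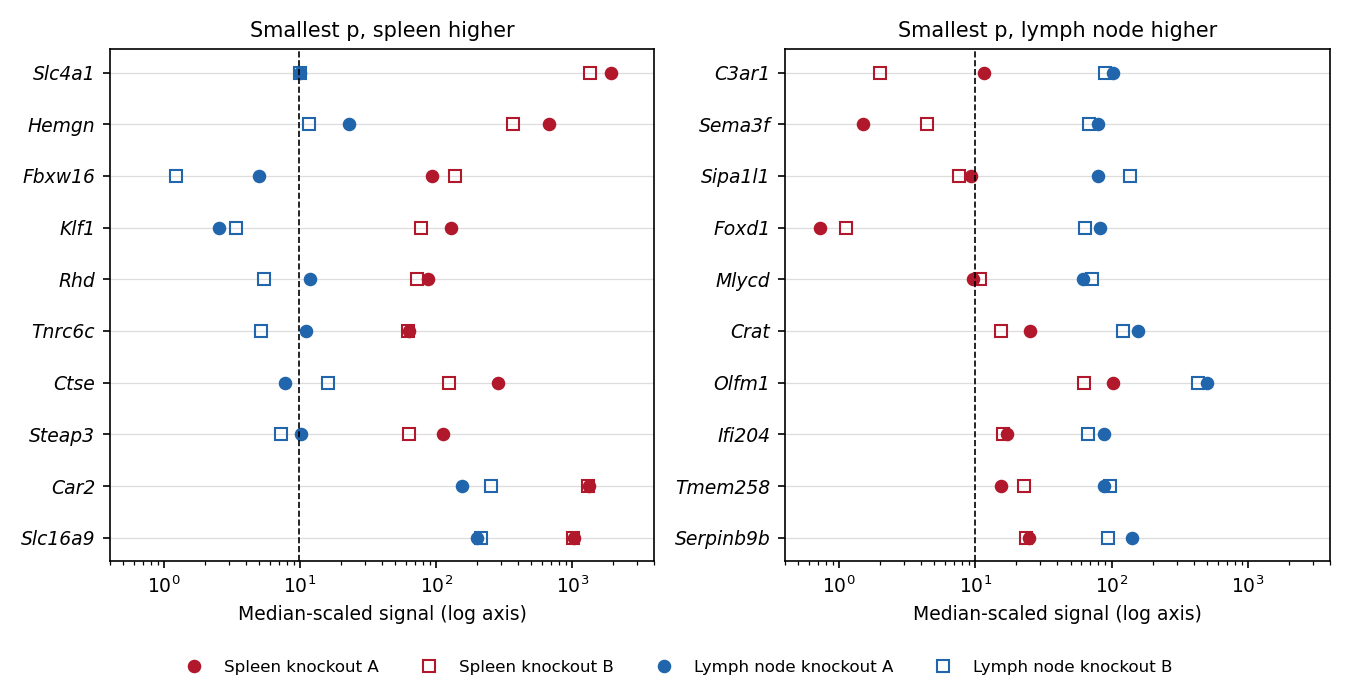
Median-scaled signals (log axis) on each of the 4 knockout arrays for the 10 genes of smallest p in each direction. Filled circles are A arrays, open squares B arrays, red is spleen, blue is lymph node, and the dashed line is the floor of 9.90. Slc4a1 had the widest gap, and several genes in both panels have 1 tissue at or below the floor.

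Genes of heme synthesis and iron handling were mostly higher in spleen. Of 17 matched members, 14 had a higher mean there and 3 in lymph node, with a median of 0.88. The tissues did not overlap in 8, all with spleen higher, against 15.7% of all genes. Among the 16 tested, 5 had an unadjusted p under 0.05 and all 5 were higher in spleen, against 2.1% of all tested genes, and none was called. The median of all 17 was 0.51 without spleen A and 1.41 without spleen B. Apart from Alas2 the 5 were Steap3, Alad, Cpox and Slc40a1. Steap3 and Slc40a1 exceeded the filter only on spleen arrays, so the count of 5 is not taken as support.

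Steap3, which reduces the iron that transferrin delivers to red cell precursors, had 113 and 63.0 in spleen and 10.2 and a value below the floor in lymph node (3.07 ± 0.45). Alad and Cpox, later enzymes of heme synthesis, differed by 2.53 ± 0.61 and 1.27 ± 0.44. Alad had 361 and 208 in spleen against 75.9 and 29.7, and Cpox 442 and 303 against 183 and 126. Slc40a1, ferroportin, through which red pulp macrophages release recycled iron, had 864 on spleen A but 89.8 on spleen B, against 36.1 and 33.2 in lymph node (3.01 ± 1.07). Without spleen A the Slc40a1 difference was 1.38. Fth1, the ferritin heavy chain, hardly varied, from 11794 to 14009 over the 4 arrays. A second tested Cpox probe set overlapped between tissues, at 260 and 68.5 in spleen and 46.3 and 87.1 in lymph node. On the probe sets given first, Alad, Cpox and Slc40a1 were thus higher on both spleen arrays than on either lymph node array, and Fth1 overlapped.

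Macrophage genes of the red pulp did not follow the red cell genes. Of the 17 matched members of the red pulp macrophage and iron recycling list, 9 had a higher mean in spleen and 8 in lymph node. Both spleen arrays lay above both lymph node arrays in 5 of them and the reverse held in 2, against 15.7% and 11.7% of all genes. The median of 0.39 turned to -0.89 without spleen A and to -0.15 without lymph node B. The list averaged 9.58 on spleen A, 7.68 on spleen B, 8.80 on lymph node A and 7.87 on lymph node B, so the A arrays were the higher ones in both tissues. With spleen higher, Spic, the transcription factor of red pulp macrophages, had 1855 and 1280 in spleen and 656 and 1084 in lymph node (0.87 ± 0.46), and Hmox1, which breaks down heme, had 961 and 293 against 271 and 217 (1.13 ± 0.65). In both the tissues did not overlap, though not by much. Adgre1, the F4/80 antigen of tissue macrophages, had 90.2 and 81.1 in spleen and 217 and 164 in lymph node (-1.14 ± 0.39). Folr2, a folate receptor of tissue macrophages on the lymph node sinus list, had 62.8 and 29.9 against 177 and 115 (-1.72 ± 0.53). The sinus list as a whole did not separate the tissues. Of its 7 matched members 3 had a higher mean in spleen and 4 in lymph node, with a median of -0.016. In Adgre1 and Folr2 each lymph node array lay above each spleen array.

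Genes of B cells mostly had a higher mean in spleen, by an amount that depended on single arrays. Of 15 matched members 14 had a higher mean in spleen, the median was 0.91, and in 6 the tissues did not overlap, all 6 with spleen higher, against 15.7% of all genes. Of the 13 tested, 3 had an unadjusted p under 0.05, all with spleen higher, against 2.1% of all tested genes. They were Fcrla, Cr2 and Bank1. Fcrla and Bank1 exceeded the filter only on spleen arrays, so the count of 3 is not taken as support. Fcrla, an Fc receptor-like protein inside B cells, had 199 and 132 in spleen and 50.8 and 37.9 in lymph node (1.88 ± 0.43). A second Fcrla probe set overlapped, with 213 and 3.90 against 83.8 and 17.8. Cr2, the complement receptor of marginal zone B cells and follicular dendritic cells, had 190 and 164 against 54.1 and 80.0 (1.42 ± 0.41). Bank1, a B cell scaffold protein, had 211 and 71.8 against 46.8 and 32.7 (1.65 ± 0.63).

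The defining antigen receptor genes were another matter. Ighm, the heavy chain of IgM, had 12281 on spleen A and 1084 on spleen B against 1580 and 187 in lymph node, and its probe sets disagreed in direction, from -2.34 to 3.36. Cd79a had 450 on spleen A and 34.9, 73.0 and 37.3 on the other arrays. The list averaged 8.92 and 7.03 in spleen and 7.61 and 6.47 in lymph node, and its median over the 15 matched members went from 0.91 to 0.26 without spleen A (9 of 15 higher in spleen), to 0.46 without lymph node B (10 of 15) and to 1.66 without spleen B. Dtx1, a Notch regulator of marginal zone B cells, had 185 and 243 in spleen and 48.7 and 108 in lymph node (1.55 ± 0.52), but its other tested probe set gave -1.18. Plac8, also on the marginal zone list, had 1419.6 and 327 against 222 and 150 (1.90 ± 0.77). That list, of marginal zone and B1 B cells, divided: of 12 matched members 7 had a higher mean in spleen and 5 in lymph node. Its median was 0.21, and 0.04 without lymph node A. Plasma cell genes showed the array more than the tissue: Mzb1, a chaperone of antibody secretion, had 1532 and 204 against 237 and 44.3, and Sdc1, the plasma cell surface marker CD138, 691 and 159 against 174 and 53.6. Their list averaged 10.10 on spleen A and between 8.05 and 8.87 on the other 3.

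Splenic sinus genes leaned to spleen, while blood endothelial genes, few of them well measured, did so by an amount that rested on single arrays. Splenic sinus endothelial genes had a higher mean in spleen in 6 of 8 matched members, with 1 lower and 1 under the floor on all arrays, and the tissues did not overlap in 5, all with spleen higher, against 15.7% of all genes. Dnase1l3, a secreted DNase of sinusoidal endothelium and also of dendritic cells and macrophages, had 4105 and 4688 in spleen and 1357 and 1476 in lymph node (1.63 ± 0.37), and its other probe set gave 1.53. Cd36, a fatty acid receptor of sinus endothelium, macrophages and some B cells, had 232 and 249 against 107 and 112 (1.13 ± 0.37). Stab1 and Stab2, scavenger receptors that mark sinusoids, had 86.8 and 121 against 79.8 and 34.6, and 156 and 128 against 124 and 61.6. In each of these 4 the spleen arrays lay above the lymph node arrays, and for Dnase1l3 and Cd36 the arrays of a tissue lay close together. Kdr, the VEGF receptor of blood endothelium, had 532 and 511 in spleen and 200 and 272 in lymph node (1.16 ± 0.39). Of the 17 blood endothelial genes matched, 11 had a higher mean in spleen and 5 in lymph node, and 12 had too little signal to test. Both spleen arrays lay above both lymph node arrays in 4 and the reverse held in 2, against 15.7% and 11.7% of all genes. The blood endothelial median was 0.44, beside 0.49 for the sinus list. It was 0 without spleen B. Without lymph node B it was also 0, with 6 members higher in spleen and 8 in lymph node.

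Lymph node vessel genes gave little contrast, and fibroblastic reticular and matrix genes leaned a little to lymph node. Glycam1, the ligand for L-selectin in high endothelial venules, had 868 on lymph node A but 54.4 on lymph node B, against 66.0 and 108 in spleen. Ctla2a, on the same list, was higher in spleen, with 277 and 166 against 97.2 and 27.2 (2.06 ± 0.71). Of the 21 matched genes of fibroblastic reticular cells and matrix, 13 had too little signal to test and 15 had the higher mean in lymph node. In 5 both lymph node arrays lay above both spleen arrays, against 11.7% of all genes. In 1 the reverse held, against 15.7%. The median was -0.18, and 0 without lymph node A. Col1a1, a collagen chain, had a value below the floor and 44.8 in spleen and 114 and 120 in lymph node (-2.47 ± 0.77). Bst1, a surface enzyme of stromal and myeloid cells, had 82.1 and 45.8 against 138 and 208 (-1.47 ± 0.49). Genes that set spleen identity in its stroma could not check the tissue label: of 8 matched, Nkx2-3 alone was tested, at 70.1 and 108 in spleen and 67.8 and 57.2 in lymph node, and Tlx1 was at most 12.0 on the 4 arrays.

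Inflammatory chemokines mostly ran the other way, higher in lymph node. Of the 20 inflammatory chemokines, 13 had the higher mean in lymph node and 7 in spleen, with a median of -0.59. In 8 both lymph node arrays lay above both spleen arrays, against 11.7% of all genes, and in 3 the reverse held, near the 15.7% of all genes. Of 16 tested, 2 had an unadjusted p under 0.05, both with lymph node higher, against 1.47% of all tested genes. Of these 2, Ccl7 exceeded the filter only on lymph node arrays, so the count is not taken as support. In the list 0 were called. Ccl7 and Ccl2, attractants of monocytes through the receptor Ccr2, led. Ccl7 had 31.4 and 28.5 in spleen and 196 and 116 in lymph node (-2.33 ± 0.44), and Ccl2 140 and 171 against 354 and 278 (-1.02 ± 0.39). Ccl8, of the same family, had 1252 and 289 against 4661 and 1495 (-2.13 ± 0.91). Cxcl2, which draws neutrophils, had 1869 and 876 against 3356 and 2572 (-1.20 ± 0.51). No spleen array reached the lower lymph node array in any of these 4. The median over all 20 chemokines was -0.68 without lymph node B, -0.79 without spleen A, -0.60 without lymph node A and -0.19 without spleen B.

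Monocyte genes had the higher mean in lymph node in 9 of 13 matched members, with a median of -0.36, and 3 of the 10 tested had an unadjusted p under 0.05 with lymph node higher, against 1.47% of all tested genes. These were F13a1, a clotting factor subunit carried by monocytes, Cd14, the co-receptor for endotoxin, and Ms4a4c. Cd14 exceeded the filter only on lymph node arrays, so the count of 3 is not taken as support. F13a1 had 152 and 91.9 in spleen and 314 and 429 in lymph node (-1.64 ± 0.45). Cd14 had 35.8 and 53.0 against 146 and 102 (-1.49 ± 0.44), and Ms4a4c 52.6 and 82.2 against 188 and 142 (-1.31 ± 0.44). The lysozyme genes Lyz1 and Lyz2 differed by -0.16 and -0.15 and followed the letters, with Lyz2 at 10958 and 11095 on the A arrays and 2305 and 2816 on the B arrays. The median over the 13 monocyte genes turned to 0.46 without spleen B and to 0.40 without lymph node A. It was -1.20 without spleen A and -1.14 without lymph node B, so the group's direction rested on single arrays. In the 3 genes named the tissues did not overlap, so leaving out 1 array could not turn their direction.

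Complement receptors and regulators divided. C3ar1, the receptor for the anaphylatoxin C3a, had 11.6 and a value below the floor in spleen and 102 and 89.2 in lymph node on its leading probe set (-3.15 ± 0.38, limma adjusted p = 0.834), and 112 and a value below the floor against 573 and 312 on a brighter one. C5ar1, the receptor for C5a, had 1931 and 555 against 3065 and 2693 (-1.47 ± 0.67). Cfb, factor B of the alternative pathway, was higher in spleen at 2883 and 3414 against 2145 and 1096 (1.03 ± 0.48). Of the 16 matched complement genes 6 had the higher mean in spleen, Cr2 and Cfb among them, and 10 in lymph node.

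**Figure D2:**
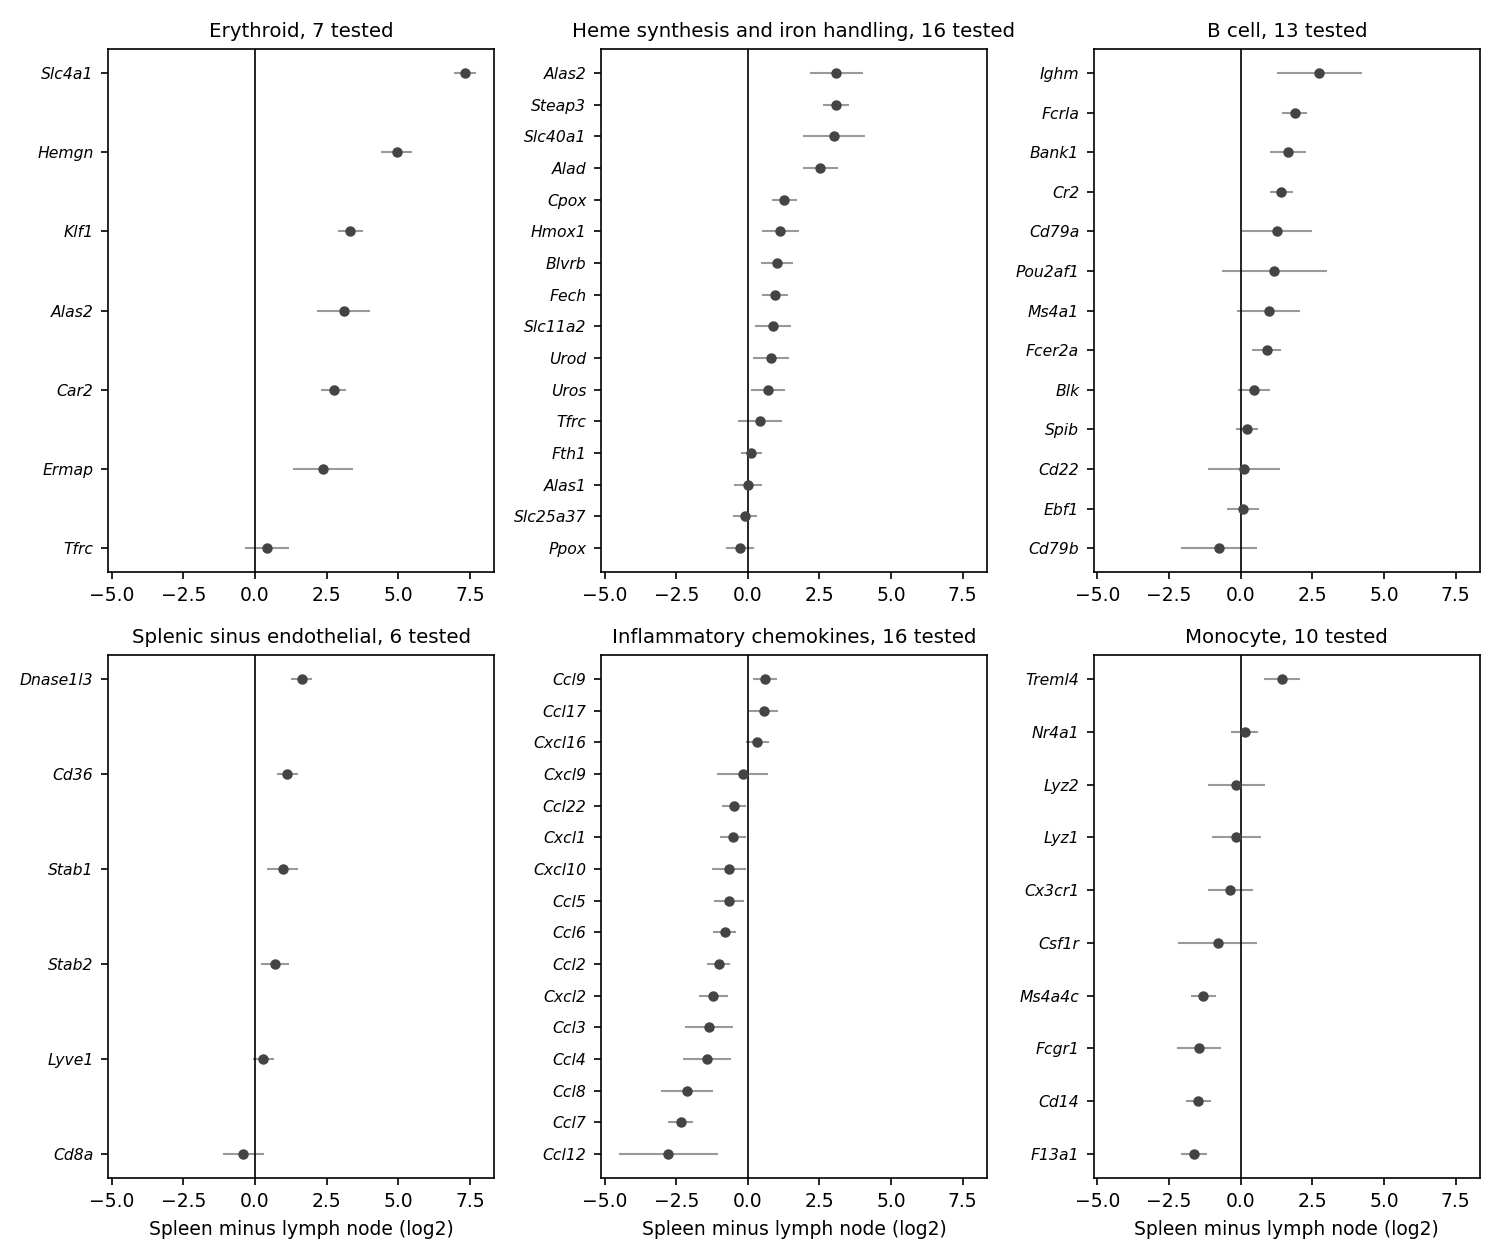
Spleen minus lymph node difference (log2, x axis) with its standard error (bars) for every tested member of 6 gene lists, from the fit to the 4 knockout arrays. All 7 erythroid members lie to the right of 0, from 0.42 for Tfrc to 7.33 for Slc4a1, and 13 of 16 chemokines lie to the left. Members such as Klf1 and Ccl7 exceeded the filter only in the higher tissue, so these counts are not taken as support.

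Genes of the mature, migratory dendritic cell, the type whose programme is rich in Ccr7, Fscn1 and Cd83, did not separate the tissues. Of 20 matched members 10 had a higher mean in spleen and 10 in lymph node, the median was 0.02, and no tested member had an unadjusted p under 0.05. Ccl5 had 4190.2 and 8799 in spleen and 8358 and 11019.5 in lymph node, and Ccl22 4699.7 and 5245 against 5688 and 8595. Their list averaged between 11.99 and 12.40 on all 4 arrays. Class II presentation genes differed little in size. Of 12 matched, 10 had a slightly higher mean in spleen, the median was 0.13, and in 7 both spleen arrays lay above both lymph node arrays, against 15.7% of all genes, with 0 the other way. None had an unadjusted p under 0.05, and with quantile normalization 6 of 12 were higher in spleen. Cd74, the invariant chain, had 14319 and 15324 against 14135 and 11805.

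Epcam, an adhesion molecule of epithelium and of some dendritic cells, had 1187 and 2009.5 in spleen and 442 and 967 in lymph node (1.24 ± 0.56). A second tested Epcam probe set overlapped, at 141 and 191 against 157 and 172. Cdh1, E-cadherin, to which Langerhans cells and epithelium adhere, had 189 and 161 against 143 and 23.4 (1.59 ± 0.89). Langerin itself, Cd207, was not above 17.7 on any of the 4 arrays. The Langerhans and skin dendritic cell list, which holds Epcam and Cdh1, divided. Of its 6 matched members 3 had a higher mean in spleen and 3 in lymph node, with a median of -0.09. On the list of epithelial adhesion and keratin genes, which also holds both, 11 of 17 matched members had a higher mean in spleen and 6 in lymph node. Cd3e, a chain of the T cell receptor complex, had 79.8 and 23.7 in spleen and 201 and 212 in lymph node (-2.25 ± 0.65). T cell genes as a group lay on both sides: of 16 matched, 7 had the higher mean in spleen and 9 in lymph node.

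Cell cycle genes separated the letters, not the tissues. Mki67, a marker of dividing cells, had 5229.6 and 1443 in spleen and 2154 and 1141 in lymph node, and Ccnb2, a mitotic cyclin, 265 and 119 against 188 and 33.9. Their list averaged 8.97 and 8.18 on the A arrays of spleen and lymph node and 6.98 and 7.10 on the B arrays. Its median over 21 matched members was 0.31 with all arrays, -0.63 without spleen A, -0.11 without lymph node B, 1.41 without spleen B and 0.86 without lymph node A. No tested member had an unadjusted p under 0.05 with all 4 arrays.

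**Figure D3:**
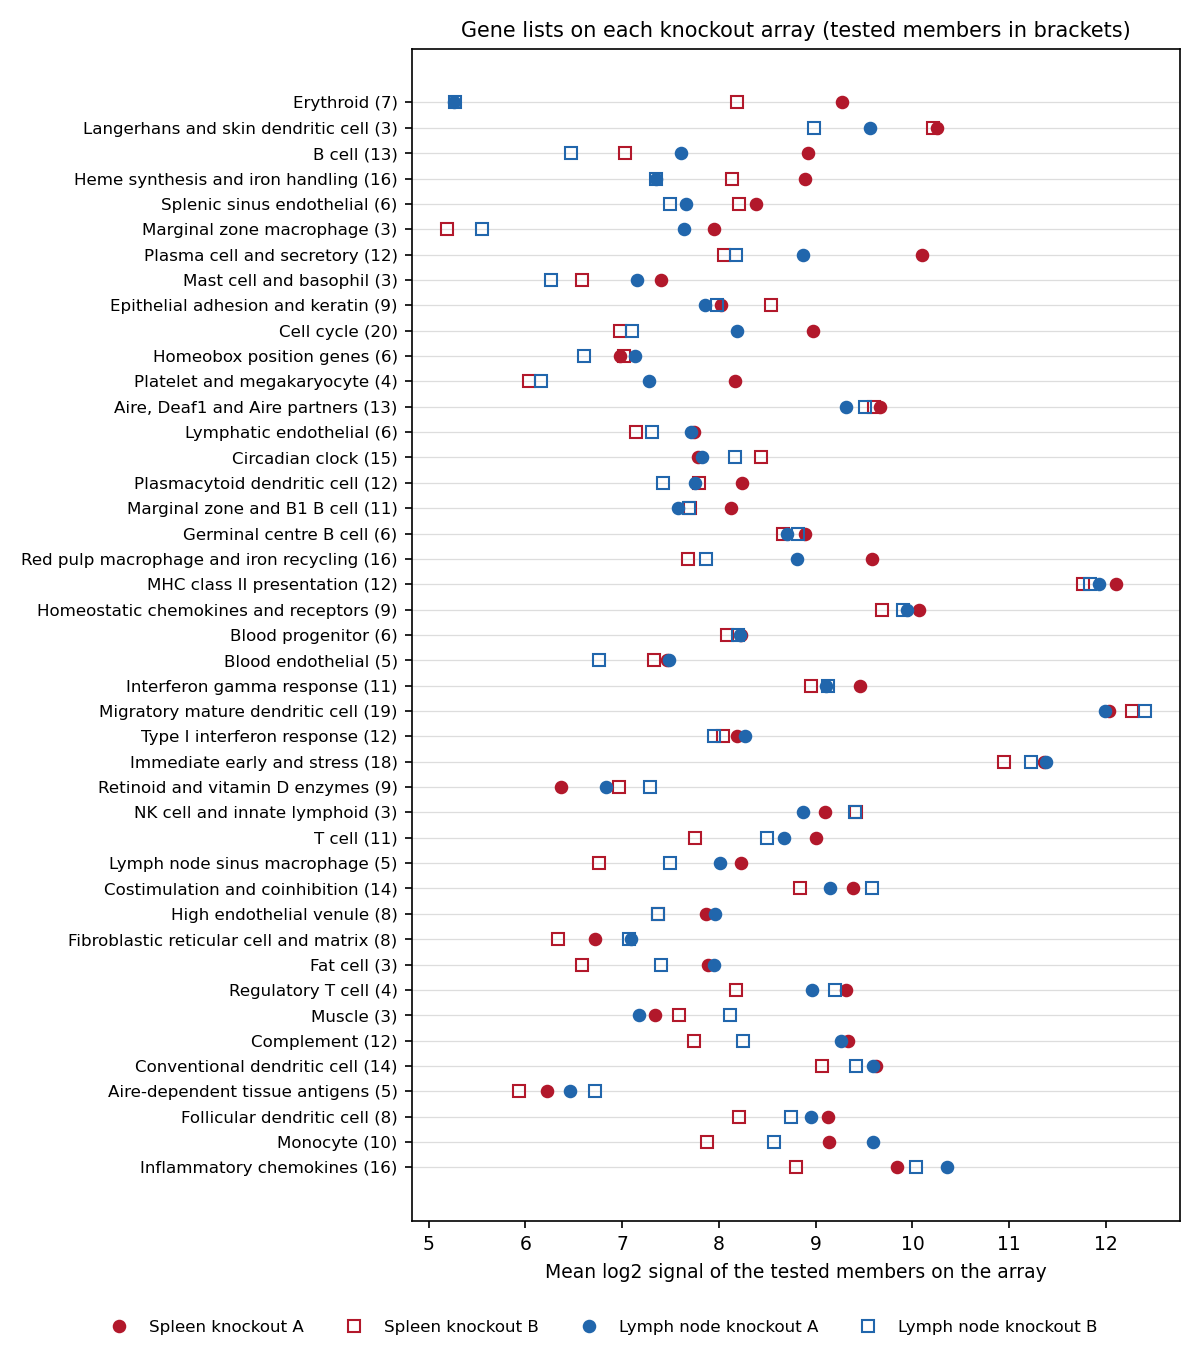
Mean log2 signal of the tested members of each gene list (y axis, tested members in brackets) on each knockout array, lists ordered by their median difference from spleen-high at the top to lymph node-high at the bottom. The 7 tested erythroid genes average 5.26 and 5.27 in lymph node and 8.19 and 9.27 in spleen. Slc4a1, Hemgn and Klf1 among them exceeded the filter only on spleen arrays, so this gap is not taken as support. Cell cycle and red pulp macrophage genes are higher on A arrays (circles) than on B arrays (squares).

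Among the 10 genes of smallest p with spleen higher, 4 remain to be given. Ctse, cathepsin E, an endosomal protease found in dendritic cells and in red cell membranes, had 282 and 124 in spleen and a value below the floor and 15.9 in lymph node (3.90 ± 0.56), but its brighter probe set did not differ, at 7449.9 and 3947 against 7122 and 4442. Slc16a9, a monocarboxylate transporter, had 1028 and 1014 against 199 and 212 (2.32 ± 0.37), and a second tested probe set gave 1.01. Fbxw16, an F-box protein, had 93.2 and 137 in spleen and was below the floor in lymph node, at least 11.4-fold lower (3.51 ± 0.41). Tnrc6c, which acts with microRNAs, differed by 2.58 ± 0.37 on 1 probe set and by 0.06 and -0.66 on its others.

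With lymph node higher, C3ar1 had the smallest p and 9 others followed. Olfm1, a secreted olfactomedin, had 103 and 62.9 in spleen and 503 and 429 in lymph node (-2.53 ± 0.43), with -2.99 on a second probe set. Crat, which moves acetyl groups to carnitine, had 25.4 and 15.5 against 157 and 122 (-2.80 ± 0.44), but another probe set gave -0.12. Ifi204, an interferon-inducible DNA sensor, had 17.1 and 15.99 against 88.6 and 67.1 (-2.22 ± 0.39), and Serpinb9b, a protease inhibitor, 24.8 and 23.7 against 142 and 93.6 (-2.25 ± 0.41). Sema3f, a guidance cue, Sipa1l1 and Foxd1, a stromal transcription factor, were below the floor on both spleen arrays and at least 7.41-fold, 10.6-fold and 7.30-fold higher in lymph node. Another Sipa1l1 probe set gave -0.36. Mlycd, a malonyl-CoA decarboxylase, differed by -2.68 ± 0.38 and Tmem258, a small endoplasmic reticulum protein, by -2.30 ± 0.41. Levels in this group were low: on these probe sets, outside Olfm1, the highest signal was 157, against a filter at 60.98.

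Retinoid genes went both ways. Aldh1a2, the enzyme that makes retinoic acid, had 346 and 839 in spleen and 210 and 367 in lymph node (0.96 ± 0.59), overlapping between tissues. Rara, the retinoic acid receptor alpha, had 24.9 and 23.0 in spleen and 158 and 72.9 in lymph node (-2.17 ± 0.51), and Rdh12, a retinol dehydrogenase, 29.6 and 41.8 against 99.2 and 64.9 (-1.19 ± 0.44). Of 17 matched genes on that list 6 had the higher mean in spleen, 9 in lymph node and 2 were under the floor throughout, with a median of -0.011.

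The wild-type arrays gave a tissue difference that shares no array with this one. Of the 379 genes with an unadjusted p under 0.05 in knockout, 285 (75.2%) had the same sign in wild-type, against 6523 of all 10606 genes tested (61.5%). By direction this held for 172 of 223 genes higher in spleen and 113 of 156 higher in lymph node. Of the 10 named genes in each direction it held for 9 and 7. Over the tested genes the knockout and wild-type differences correlated at 0.38, a description across genes, which are not independent replicates.

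Slc4a1 had 2109 and 40.7 in wild-type spleen and 60.0 and 10.3 in wild-type lymph node, so wild-type spleen B was low where knockout spleen B was not. Hemgn repeated this, with 502 and 26.9 in wild-type spleen and 6.25 and 0.361 in wild-type lymph node. These genes were picked and filtered on the knockout arrays, so the sizes in the 2 genotypes are given side by side and not compared. Dnase1l3 differed by 1.62 in wild-type and by 1.63 in knockout, and Ccl8 by -2.95 and -2.13. Steap3 differed by -0.40 in wild-type and by 3.07 in knockout. Whether such tissue differences themselves depended on genotype was tested on all 8 arrays: 0 of 23663 probe sets (0%) were called, the lowest limma adjusted p was 0.9998, and 785 had an unadjusted p under 0.05.

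Of those, the 5 genes of smallest p were Foxd1, Tmem258, Tmem156, Cpq and Havcr2. Foxd1 had 81.9 and 63.8 in knockout lymph node and no more than 13.8 on any other array (interaction -3.04). Tmem258 had 15.5 and 22.8 in knockout spleen and 158 and 132 in wild-type spleen (-3.07). Tmem156, Cpq, a carboxypeptidase, and Havcr2, the checkpoint receptor TIM-3, shared a pattern, low in wild-type spleen alone. Cpq had 6.29 and 5.70 in wild-type spleen and 119 and 70.7 in knockout spleen, Havcr2 11.2 and 4.77 against 136 and 98.2, and Tmem156 8.43 and 1.75 against 263 and 101. Their interactions were 2.95, 3.23 and 4.25, each with a limma adjusted p of 0.9998.

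**Figure D4:**
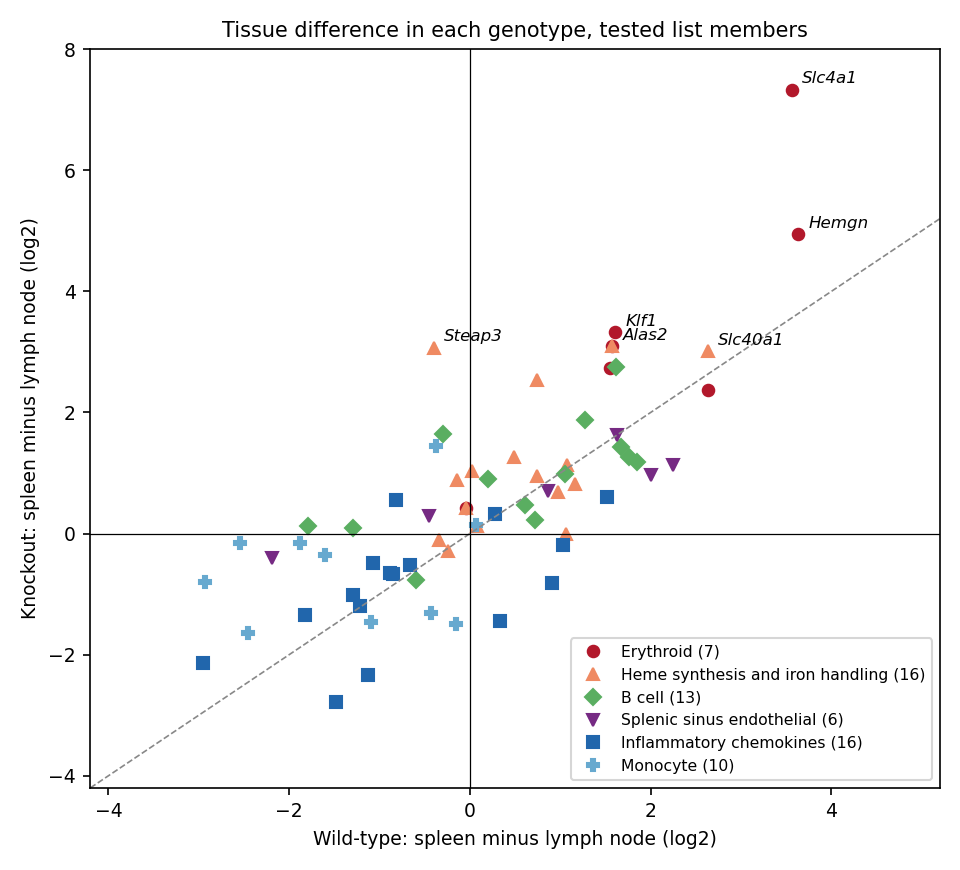
Spleen minus lymph node difference (log2) in knockout (y axis) against the same in wild-type (x axis) for the tested members of 6 gene lists, with the line of equality dashed. Slc4a1 (7.33 in knockout, 3.56 in wild-type) and Steap3 (3.07 and -0.40) lie furthest above the line among the genes labelled.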

How the data were processed

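Total RNA was biotin-labelled and hybridised to expression arrays by the Affymetrix protocol, per the labels. The authors deposited 1 linear intensity per probe set and array, made with MAS5 per the submitters' processing notes; no version, target value or detection call is stated there. The 2% trimmed mean was 250 on each array as deposited. From these, 64 control probe sets were left out. The log2 medians of the 4 arrays ranged over 0.20, past the tolerance of 0.2, and all 4 were therefore brought to one median; a floor was set at the 20th percentile (9.90) before log2 was taken. Probe sets above the pooled median of 60.98 on at least 2 of the 4 arrays were tested.

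Differences were fitted with limma 3.58.1 in R 4.3.3, lmFit and eBayes on 2 group means, with 2 residual and 3.24 prior degrees of freedom, and adjusted by Benjamini-Hochberg over all 23663 probe sets. The fit was first tested on simulated data with large shifts and no effect of the letter, so that test does not cover small differences or the letters. Of the 45037 probe sets, 34945 carried 1 gene symbol, 932 several and 9160 none; 34741 were matched to current symbols by Entrez ID. The probe set of highest mean stood for a gene in the lists and counts. Genes were named as the 10 of smallest p in each direction, the 4 of smallest p in each list, Aire, the sex-linked genes and the 5 of smallest interaction p; others were picked after their values were seen or as the rest of a short list. The comparison, the 48 lists (700 members, 69 without a match) and the rules were chosen with earlier results of these data known, and no list was tested as a set. The number of arrays limits the precision. Alternatives covered scaling, floor, filter, probe set choice, prior, letter, the fit to 8 arrays and each array left out.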

Additional observations from a re-analysis of the deposited data

How the results depend on the processing

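Over the alternatives run, 75 genes given in the text were followed, and 1135 of 1146 values kept their direction and side of the threshold. In the main fit none of these genes was called, so no call could be lost. A gene whose tissues did not overlap could not turn on leaving out 1 array. The count is therefore not taken as support. No probe set was called under any alternative except the trended and robust prior, which called 3, with Slc4a1 past the threshold at 7.33. The count at an unadjusted p under 0.05 was 914, and became 2972 with no filter, 416 with 1 probe set a gene and 1600 with the letter as a replicate block, where 0 were called. Leaving out 1 array gave 443 to 2521, lowest without lymph node A, 545 without lymph node B, 1306 without spleen B and highest without spleen A, where the share higher in spleen was 29.4% against 53.8% with all arrays; a lone array was then assumed to vary like the other group. The A minus B deviations of the 2 tissues correlated at 0.34, and with 2 pairs the letters were not taken as a pairing. The test between genotypes called 0 with no filter, quantile normalization, the trended prior and the block. A change of sign was seen only on leaving out 1 array: Tfrc ranged from -0.57 to 1.41, S100a8 from -0.45 to 5.95, Mki67 from -0.12 to 1.74, Ccnb2 from -0.079 to 2.39, Xist from -4.72 to 3.85, Eif2s3y from -0.42 to 1.51, Havcr2 from -0.010 to 0.85 and Glycam1 from -3.36 to 0.64. The cause was not tested. Signals near the floor limit what low genes can show.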

Other observations

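Genes outside the groups above also kept the tissues apart in a few cases. Of 15 circadian clock genes, Dbp, a clock output factor, had 2107 and 2403 in spleen and 836 and 1149 in lymph node (1.20 ± 0.40), and Hlf, a factor of the same family, went the other way with 45.1 and 57.7 against 94.5 and 99.0 (-0.92 ± 0.38). In 3 of the 15 both spleen arrays lay above both lymph node arrays and in 5 the reverse held, against 15.7% and 11.7% of all genes. Of 12 plasmacytoid dendritic cell genes, 7 had a higher mean in spleen and 5 in lymph node, with a median of 0.17. The 3 that differed most were higher in spleen: Pacsin1 had 187 and 93.8 against 37.0 and 32.1 (1.94 ± 0.48), Ly6d 244 and 110 against 64.9 and 65.4 (1.33 ± 0.51) and Siglech 577 and 119 against 116 and 37.1 (1.997 ± 0.94). Ido1, an enzyme that degrades tryptophan and is induced by interferon gamma, had 542 and 1305 in spleen and 126 and 359 in lymph node (1.98 ± 0.71), while the 12 interferon gamma genes together had a median of -0.08. None of these passed correction (limma adjusted p = 0.9999).

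Transcripts of organs near the sampled ones were uneven. The salivary genes high on knockout lymph node B were also high on wild-type lymph node A, with Amy1 at 1525, Smr3a at 1860 and Bpifa2 at 3568, and on wild-type lymph node B they had 2.41, 29.4 and 55.6. Of 13 pancreas acinar genes, 12 had too little signal to test. Immediate early and stress genes, which respond to handling, had a median of -0.04 over 18 members and averaged between 10.95 and 11.38 on the 4 arrays.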
